A study of Mus musculus with 4 samples.

Results

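Genes that make fatty acids and build them into triglyceride were compared between mammary tissue of mice labelled knockout (KO) for STAT5 and tissue of mice labelled wild-type (WT). The 38 members were listed by symbol, and 37 of them had at least 1 probe set (a group of short probes for 1 transcript) that carries exactly that symbol, out of 18193 genes named this way on the array. G6pdx, which encodes the first enzyme of the pentose phosphate pathway, was not matched and was not analysed here. Where a gene had several probe sets, the one that was brightest on average over the 4 arrays, in log2 signal, stands for it.

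The study placed total RNA on 4 Affymetrix arrays, 2 per genotype, and its title concerns the control of luminal progenitor cells, which give rise to milk-secreting alveoli, by STAT5A. WT and KO mice are described only by tissue, genotype and a collection time of 6 days, whose starting event is not named. No strain, age, allele or deleting Cre is given, so it is not stated whether STAT5 was removed from the whole animal or from the epithelium alone. The design text counts 2 mice per genotype, and the p-values measure the spread between these samples.

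Fatty acid synthesis starts from citrate, which leaves the mitochondrion and is split into acetyl-CoA. Acetyl-CoA carboxylase makes malonyl-CoA, fatty acid synthase builds a saturated chain from it, and desaturases and elongases then add double bonds and carbon units. Acyl groups are finally joined to a glycerol backbone to form triglyceride. In the mammary gland this pathway serves 2 cell types, the epithelium, which makes milk fat, and the adipocytes of the fat pad, which store it. Both were present in the tissue, since the luminal keratin gene Krt8 gave 4378 to 7431 and the adipocyte gene Adipoq 17022 to 19208 over the 4 arrays. STAT5 is activated by prolactin and growth hormone and drives alveolar development and milk protein genes.

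A single member passed the test, the desaturase gene Fads2, which was lower in KO. Of the 37 members, 36 were bright enough to be tested, 1 fell and 0 rose by limma (adjusted p under 0.05), against 1.36% of all 11360 tested genes called lower and 1.21% called higher. At an unadjusted p under 0.05 limma gave 6 members lower and 1 higher, where 10.8% of all tested genes were lower and 10.4% higher. Both KO arrays lay below both WT arrays for 10 of the 36 tested members (27.8%) and above them for 4 (11.1%), against 27.5% and 26.2% of all tested genes. The share of members lower on both KO arrays was therefore close to that of the whole array. The median log2 difference (KO minus WT, on the scale of log2(signal + 16)) was -0.22 over the 37 members and -0.01 over all tested genes. Between the 2 WT arrays (replicate 2 minus replicate 1) the median of the members was -0.18, a difference of similar size within 1 genotype. With each array centred on its general epithelial markers the median of the members was 0.13 and that of all genes 0.34. This centring shifts every gene alike, so it moves the level of both medians and not the gap between them. RNA came from whole tissue, so fewer cells of a type and less RNA per cell cannot be told apart.

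**Figure D1:**
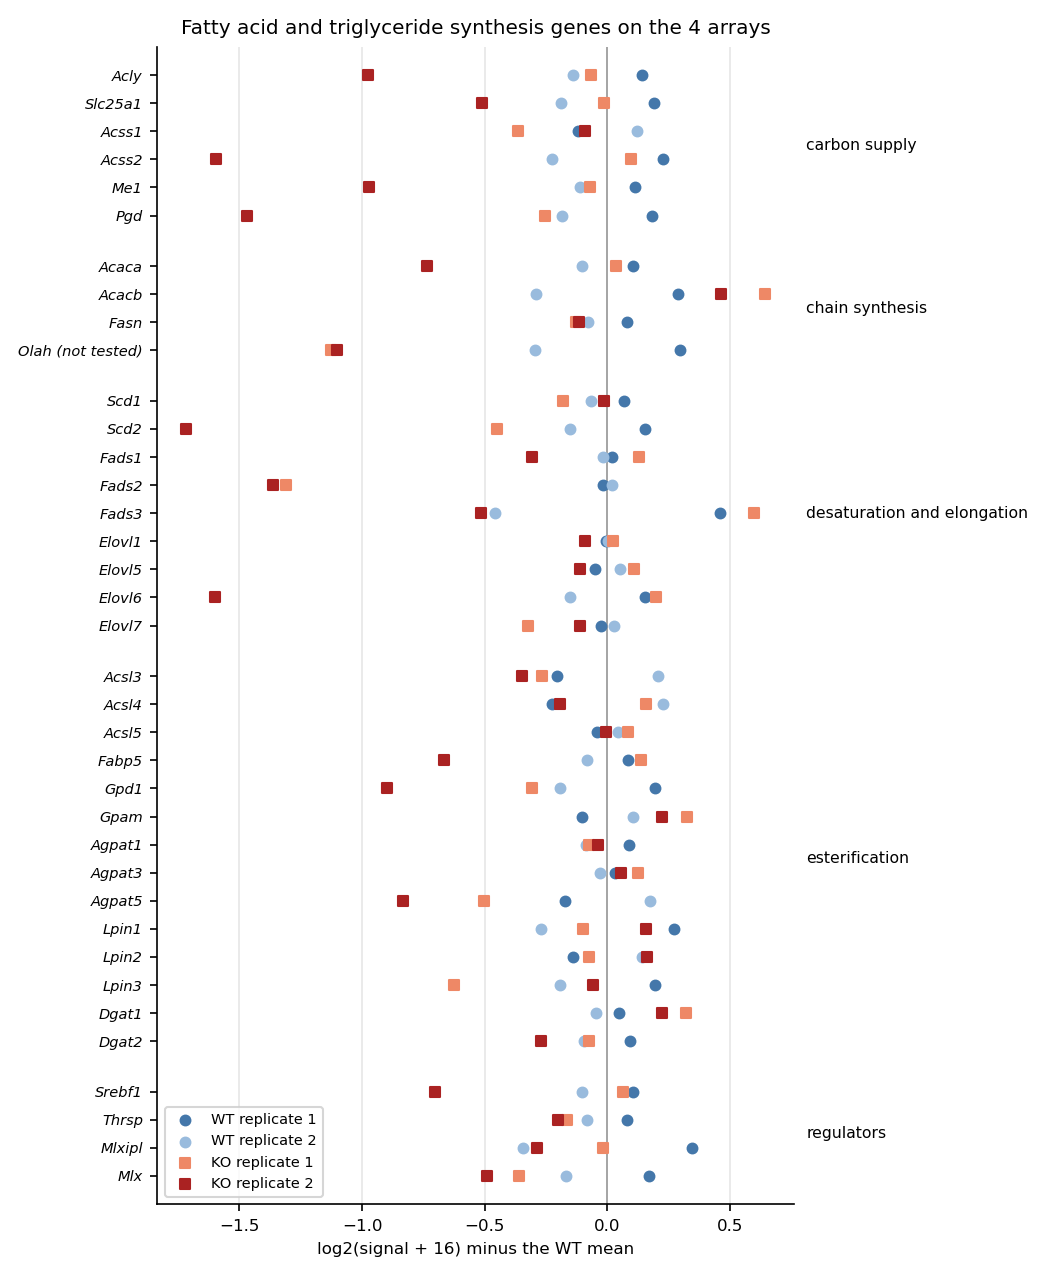
Each row is 1 gene and each point 1 array, placed by log2(signal + 16) minus the mean of the 2 WT arrays, with genes grouped by step. Fads2 and Olah lie far to the left on both KO arrays, whereas Acss2, Pgd, Acly, Me1, Scd2 and Elovl6 have KO replicate 2 alone at -0.97 or less.

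Fads2 encodes the delta-6 desaturase, the entry enzyme for making long polyunsaturated fatty acids from linoleic and linolenic acid. Its neighbour on chromosome 19, Fads3, encodes a related desaturase and did not pass. The difference of Fads3 was 0.04 with a wide SE of 0.41, and the 2 genes were not tested against each other. For both genes the 250 bases upstream of a RefSeq start are shown (RefSeq, GRCm38.p6), read 5′ to 3′ along the gene. No such window was available for Fads1. Capitals mark matches, on either strand, to 5 motifs that were searched: TTCNNNGAA (bound by STAT factors), TCACNCCAC (SREBP), CACGTG (E box), CCAAT (NF-Y) and GGGCGG (Sp1). The first sequence is chr19:10101504-10101753 on the minus strand and the second chr19:10041298-10041547 on the plus strand.
Fads2: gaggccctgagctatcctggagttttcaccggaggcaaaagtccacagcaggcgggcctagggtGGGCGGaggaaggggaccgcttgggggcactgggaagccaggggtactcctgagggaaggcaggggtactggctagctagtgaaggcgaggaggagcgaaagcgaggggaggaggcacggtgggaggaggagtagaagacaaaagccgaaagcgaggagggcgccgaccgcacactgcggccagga
Fads3: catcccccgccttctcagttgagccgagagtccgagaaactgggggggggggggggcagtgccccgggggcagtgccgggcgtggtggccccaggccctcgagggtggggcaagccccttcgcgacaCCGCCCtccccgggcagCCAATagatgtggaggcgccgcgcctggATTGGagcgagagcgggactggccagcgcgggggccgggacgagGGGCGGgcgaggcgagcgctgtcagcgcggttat

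The Fads2 window held a single match, GGGCGG at 186 to 181 bases before the start, and that of Fads3 held 2 matches to the Sp1 motif and 2 to that of NF-Y. The Sp1 motif occurs in 32.7% and the NF-Y motif in 33.8% of all 32851 RefSeq windows of this length. Neither window held the STAT motif, which occurs in 7.02% of all windows, and this says only that these letters are not in these 250 bases. Of the members, 29 had such windows, 40 in all since some have several starts. The STAT motif was found in 1 of the 40 (2.5%), at Agpat1, and the SREBP motif in 1, at Mlxipl, against 1.05% of all windows. The E box was found in 5 of the 40 (12.5%, against 6.02% of all windows), at Elovl5, Lpin2, Mlx, Mlxipl and Slc25a1. The NF-Y motif was found in 19 (47.5%) and the Sp1 motif in 22 (55%). These matches are descriptions of the letters and not of binding.

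Fads2 gave signals of 1848 and 1897 in WT and of 745 and 719 in KO. The groups did not overlap, and within each genotype the arrays differed far less than the genotypes did. KO stood at 39.1% of WT (732 ± 18.2 against 1873 ± 35.0, SD, n = 2), a log2 difference of -1.34 (SE 0.13, limma adjusted p = 0.0138). A second tested probe set of Fads2, at 1532 and 1484 in WT and 657 and 583 in KO, gave -1.26 (limma adjusted p = 0.0203). Without WT replicate 1 the adjusted p of Fads2 was 0.0501 and without WT replicate 2 it was 0.0831, at differences of -1.36 and -1.32. General epithelial markers had a median of -0.43 over 22 genes, with 17 below 0 and 5 above. Of the 21 tested, limma called 1 lower (the ETS factor gene Ehf, -1.78) and 1 higher (the keratin gene Krt7, 1.02). At an unadjusted p under 0.05 limma gave 8 of these markers lower and 2 higher. The median of these markers against the WT mean was -0.69 for KO replicate 1 and -0.16 for KO replicate 2. When each array was centred on them Fads2 gave -0.99 (limma adjusted p = 0.256). KO replicate 2 minus KO replicate 1 had a median of 0.58 over the 21 tested markers and was -0.05 for Fads2. Centring on the markers therefore also widens the spread of Fads2 within KO, which enters this adjusted p. The part of these markers in the result was not tested.

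The other genes of desaturation and elongation did not pass. Scd2, one of the delta-9 desaturases, which make oleic and palmitoleic acid, gave 9997 and 8093 in WT and 6572 and 2726 in KO. Both KO arrays were below both WT arrays, KO replicate 2 by far the more, at a log2 difference of -1.08 (SE 0.37, limma adjusted p = 0.178). Its 2 dimmer probe sets gave -1.37 (adjusted p = 0.0954) and -1.77 (adjusted p = 0.0484), so 1 of the 3 probe sets of Scd2 passed, although the brightest did not. Scd1, the main delta-9 desaturase of adipose tissue, gave 20836 and 18969 in WT and 17530 and 19709 in KO, with overlapping groups and a difference of -0.10. Elovl6, which extends palmitate to stearate, stood at 11914 and 9617 in WT and at 12294 in KO replicate 1, the highest of the 4 arrays. In KO replicate 2 it stood at 3516, which is 32.7% of the WT mean, and both arrays together gave -0.70 (SE 0.51, limma adjusted p = 0.505).

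Fads1, the delta-5 desaturase that acts after Fads2 in the same route, gave 3648 and 3562 in WT and 3937 and 2912 in KO. The KO arrays fell on either side of the WT arrays and the difference was -0.09 with an SE of 0.17 on the brightest probe set. A dimmer probe set of Fads1 gave -0.57 (limma adjusted p = 0.191). Fads3 varied within both genotypes, from 4934 to 2611 in WT and from 5435 to 2507 in KO, at a difference of 0.04 with an SE of 0.41. The elongase genes Elovl1 and Elovl5, which act on saturated and polyunsaturated chains, differed by less than 0.05 on the log2 scale. The negative differences of Scd1, Fads1, Elovl1 and Elovl5 turned positive when arrays were centred on epithelial markers, and those of Elovl1 and Elovl5 also with median centring. Elovl7, a further elongase gene, gave -0.22 on its brightest and 0.24 on its other tested probe set.

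Genes that supply carbon and reducing power had the lowest median of the steps, -0.52 over 6 genes, and none of the 6 passed (limma; 1 was lower at an unadjusted p under 0.05). The median came from KO replicate 2, where it was -0.97 against the WT mean, while KO replicate 1 had -0.07. Pgd, an enzyme of the pentose phosphate pathway that makes NADPH, gave 11459 and 8881 in WT and 8445 and 3636 in KO. It was the member of this step whose groups did not overlap, at -0.86 (SE 0.36, limma adjusted p = 0.254), and 3 more probe sets of Pgd gave -0.63 to -0.83. The name of the brightest ends in x_at, which Affymetrix gives to probe sets that may also bind other transcripts. Acss2, which makes acetyl-CoA from acetate in the cytosol, gave 10301 and 7533 in WT and 9421 and 2906 in KO. KO replicate 1 lay between the WT arrays and KO replicate 2 was at 32.6% of their mean (difference -0.75, SE 0.49).

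Me1, the malic enzyme that yields NADPH, showed the same arrangement, with 19575 and 16753 in WT, 17218 in KO replicate 1 and 9213 in KO replicate 2. Acly, which splits citrate into acetyl-CoA, did so too, with 19217 and 15791 in WT, 16634 in KO replicate 1 and 8855 in KO replicate 2. Slc25a1, the mitochondrial citrate carrier, stood at 98.1% of the WT mean in KO replicate 1 and 69.5% in KO replicate 2. Acss1, the mitochondrial acetate enzyme, ran the other way, at 77.2% and 93.5%. The summed signal of the 6 genes was 76606 and 61783 in WT, 65602 in KO replicate 1 and 34971 in KO replicate 2.

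Among the genes of chain synthesis, 3 were tested and limma called 0 lower and 0 higher, with 0 lower and 1 higher at an unadjusted p under 0.05. The gene of fatty acid synthase, Fasn, gave 22025 and 19693 in WT and 19051 and 19239 in KO, a difference of -0.12 (SE 0.11, limma adjusted p = 0.605). These signals are close to the highest on any array outside the control probes, 23200 to 25536, so the range left above them was small. The same limit holds for Scd1 and Thrsp, whose signals ran from 17530 to 20836 and from 18342 to 22316. Acaca, the carboxylase that feeds fatty acid synthase, gave 12890 and 11165 in WT and 12288 and 7208 in KO (-0.35, SE 0.24). A dimmer probe set of Acaca, at 615 and 830 in WT and 501 and 202 in KO, gave -1.12 (limma adjusted p = 0.182).

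Acacb encodes the carboxylase tied to mitochondria, whose malonyl-CoA restrains fatty acid oxidation. It gave 5063 and 3385 in WT and 6464 and 5712 in KO, above WT on both arrays (0.55, SE 0.20, limma adjusted p = 0.198), and was the member with the largest positive difference. Olah encodes the thioesterase that ends chain growth early and so gives the medium-chain fatty acids of milk. Its brightest probe set gave only 97.6 and 59.5 in WT and 26.4 and 27.1 in KO. Both KO signals were below the WT signals, but all 4 lay under the array medians of 121 to 131, and Olah was too dim to be tested.

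**Figure D2:**
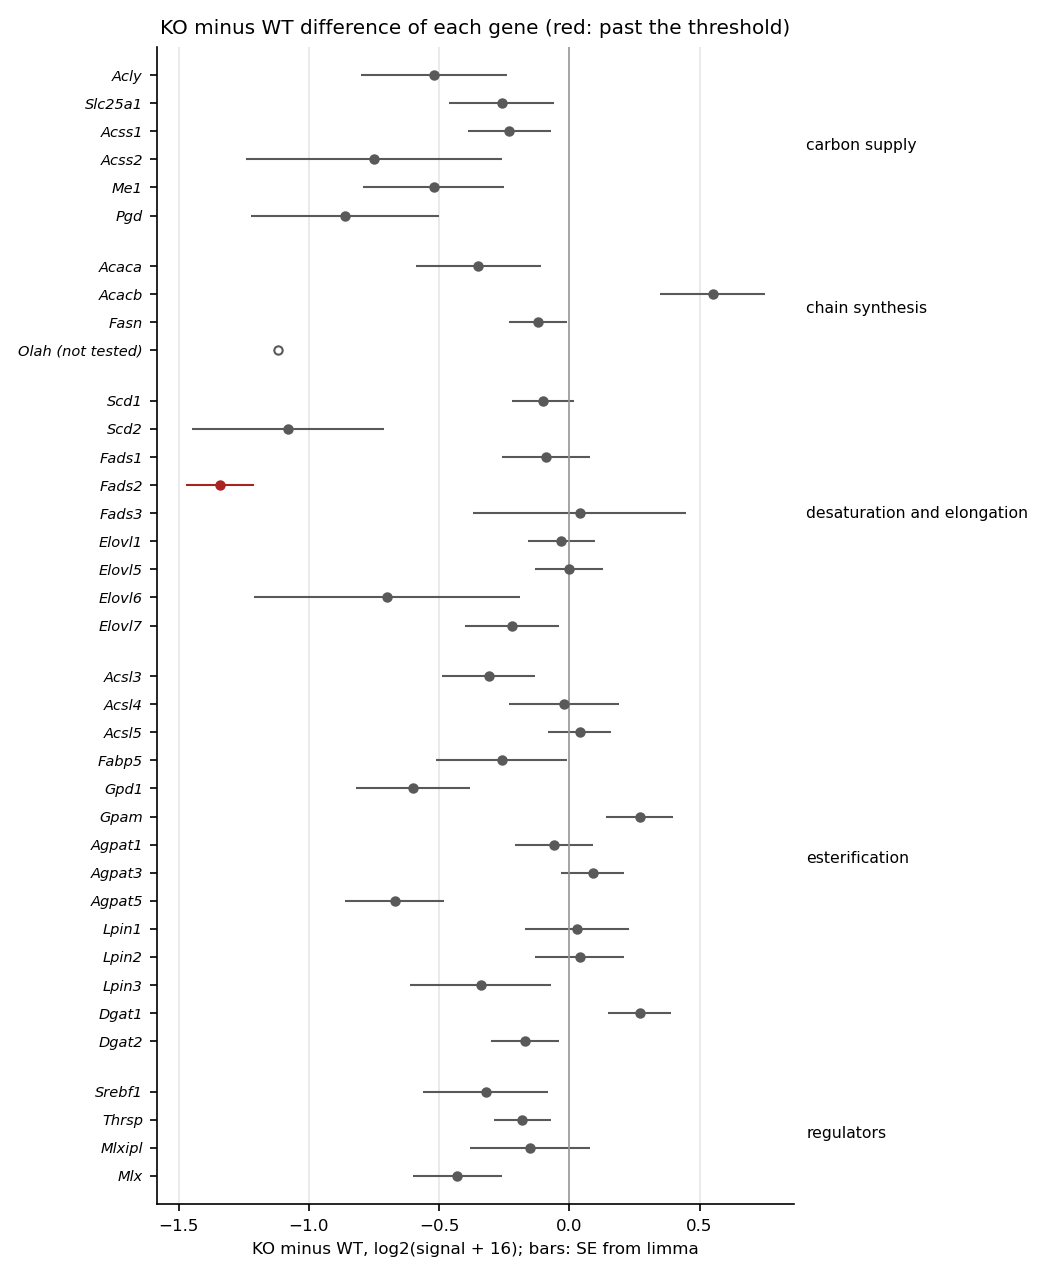
Points are the KO minus WT difference of each gene in log2(signal + 16), bars are the SE from limma, and the open point (Olah) was not tested. Fads2 at -1.34 is the red point past the threshold. The wide bars of Acss2, Elovl6, Fads3 and Scd2 (SE 0.37 to 0.51) come with KO arrays that differ from each other. For Fads3 the WT arrays lie far apart too (replicate 2 minus replicate 1 of -0.91, against -1.11 in KO).

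The esterification genes went both ways, 8 below and 6 above 0, from -0.67 to 0.27 with a median of -0.04. Both KO arrays lay below both WT arrays for 3 of the 14 genes and above them for 3, against 27.5% and 26.2% of all tested genes. These counts were no larger than the shares over the whole array. By limma 0 were called lower and 0 higher (2 lower and 0 higher at an unadjusted p under 0.05). Agpat5, a lysophosphatidate acyltransferase, gave 850 and 1083 in WT and 673 and 531 in KO. Its groups did not overlap and it differed by -0.67 (SE 0.19, limma adjusted p = 0.123), but a second probe set gave -0.18. Gpd1, which makes glycerol 3-phosphate for the backbone, gave 12605 and 9632 in WT and 8899 and 5901 in KO. Both KO arrays were lower (-0.60, SE 0.22, adjusted p = 0.201), and 2 other tested probe sets of Gpd1 gave -0.85 and -0.06. Lpin3, a phosphatidate phosphatase, gave 196 and 146 in WT and 104 and 162 in KO, with overlapping groups (-0.34, SE 0.27).

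Dgat1, Gpam and Agpat3 were the esterification genes above WT on both KO arrays. Dgat1, which adds the last acyl group, gave 6113 and 5738 in WT and 7397 and 6919 in KO (0.27, SE 0.12, limma adjusted p = 0.263). The mitochondrial glycerol phosphate acyltransferase gene Gpam gave 6802 and 7873 in WT and 9160 and 8547 in KO (0.27, SE 0.13, limma adjusted p = 0.292). The acyltransferase gene Agpat3 differed by 0.09, and its 4 probe sets ranged from -0.26 to 0.44. Dgat2, the other enzyme of the last step, gave -0.17, turned to 0.17 by epithelial centring.

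The fatty acid binding protein gene Fabp5 followed the carbon supply genes, at 12525 and 11174 in WT, 13018 in KO replicate 1 and 7445 in KO replicate 2. Among the acyl-CoA synthetase genes, which activate fatty acids, Acsl3 gave -0.31, Acsl4 -0.02 and Acsl5 0.04. The lipin genes Lpin1 and Lpin2 gave 0.03 and 0.04, and Agpat1 gave -0.06, each smaller than its SE.

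The regulators had a median of -0.25 over 4 genes, of which limma called 0 lower and 0 higher (1 lower and 0 higher at an unadjusted p under 0.05). Srebf1 encodes the sterol regulatory element binding protein that activates fatty acid synthesis genes. It gave 8739 and 7564 in WT, 8508 in KO replicate 1 and 4992 in KO replicate 2, so that KO replicate 2 alone lay outside the WT range (-0.32, SE 0.24, limma adjusted p = 0.528). Mlx, the partner of the carbohydrate-responsive factor Mlxipl, gave 819 and 646 in WT and 563 and 513 in KO, lower on both arrays (-0.43, SE 0.17, adjusted p = 0.245). Thrsp, a lipogenic protein of mammary and adipose tissue, gave 22316 and 19934 in WT and 18796 and 18342 in KO (-0.18, SE 0.11). Mlxipl itself gave -0.15 with an SE of 0.23, and the differences of Srebf1, Thrsp and Mlxipl turned positive with epithelial centring.

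The KO animals differed from each other in many of these genes. KO replicate 2 was the lowest of the 4 arrays for 21 of the 36 tested members (58.3%), against 20.9% of all tested genes. It lay more than 0.5 below KO replicate 1 on the log2 scale for 11 members (30.6%) and more than 0.5 above it for 1 (2.78%), against 5.65% and 6.04% of all tested genes. That limit was chosen after the values were seen, and these shares are descriptions without a test. The WT arrays differed by more than 0.5 for 4 of the 36 members, against 936 of all 11360 tested genes. Counted by that limit, the KO arrays differed for more members than the WT arrays did. The signed medians were close in the 2 genotypes, but they measure a shift that members share and not how far single genes differ. WT replicate 2 minus WT replicate 1 had a median of -0.18 over the 37 members, against 0.00039 over all tested genes. KO replicate 2 minus KO replicate 1 had a median of -0.19 over the 36 tested members. WT replicate 1 was the highest array for 18 of the 36, against 2423 of all 11360 tested genes. By step, the median over tested members of KO replicate 2 minus KO replicate 1 was -0.90 for carbon supply, -0.22 for desaturation and elongation, -0.20 for the regulators, -0.18 for chain synthesis, and -0.09 for esterification.

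Without KO replicate 1, a fit in which the lone KO array is assumed to vary like the WT arrays, limma called 7 members lower and 0 higher, against 1.85% of tested genes called lower and 1.5% called higher. These were Scd2 (-1.72, adjusted p = 0.00457), Elovl6 (-1.60, 0.00624), Fads2 (-1.36, 0.00977), Acss2 (-1.59, 0.0105), Pgd (-1.47, 0.0105), Me1 (-0.97, 0.0255) and Acly (-0.97, 0.0307). Without KO replicate 2, Fads2 alone was called (-1.31, adjusted p = 0.00786), while 3.41% of tested genes were called lower and 1.86% higher. The differences of Acss2, Elovl6, Acaca, Fabp5 and Srebf1 then turned positive, at 0.03 to 0.20. Fads2 was thus lower on each KO array taken alone. The falls of Acss2, Elovl6, Me1 and Acly rest on KO replicate 2, since KO replicate 1 was not below both WT arrays on their brightest probe sets. For Scd2, KO replicate 1 was below both WT arrays too, though by less than KO replicate 2. Against the WT mean, the Scd2 probe sets gave -0.45, -0.79 and -1.25 on KO replicate 1, brightest first. Pgd was below both WT arrays on KO replicate 1 for its brightest probe set (-0.26) and not for its dimmest (-0.06).

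Several other measures also differed between the KO arrays. Stat5a gave 2307 and 2061 in WT, 1836 in KO replicate 1 and 861 in KO replicate 2, and Stat5b gave 1522 and 1506 in WT, 1069 in KO replicate 1 and 712 in KO replicate 2. The labels do not say which part of which gene was deleted, so these probe sets may not check the genotype. Csn2, the beta-casein gene, was at 1.28% and 0.876% of the WT mean on KO replicates 1 and 2. Summed general epithelial markers (22 of 23 genes matched) were 60451 and 64065 in WT, 41401 in KO replicate 1 and 63212 in KO replicate 2. Bright genes weigh most in that sum. On KO replicate 2 the keratin genes Krt8, Krt18 and Krt19 stood at 129%, 148% and 152% of the WT mean, whereas Epcam stood at 71.1% and Ehf at 40.2%. Over the 22 markers the median against the WT mean was -0.69 on KO replicate 1 and -0.16 on KO replicate 2. Their part in the result was not tested.

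White adipocyte markers had a summed signal over 15 of 18 genes of 182113 and 172283 in WT and 194719 and 192488 in KO, and none of the 15 was called by limma (0 lower and 2 higher at an unadjusted p under 0.05). Much of that sum comes from signals near the top of the array range, such as those of Fabp4 and Car3, where little range is left above. Over the 15 the median difference was 0.20, with 11 above 0 and 4 below. Both KO arrays lay above both WT arrays for 8 of the 15 and below them for 0, against 26.2% and 27.5% of all tested genes. KO replicate 2 lay more than 0.5 below KO replicate 1 for 2 of the 15 and more than 0.5 above it for 1. Of the dimmer markers, 2 singled out after their values were seen differed between the KO arrays, in opposite directions. The leptin gene Lep stood at 3615 and 2200 in WT, 3808 in KO replicate 1 and 717 in KO replicate 2. The angiotensinogen gene Agt stood at 288 and 391 in WT, 723 in KO replicate 1 and 2199 in KO replicate 2. Brown adipocyte markers had a summed signal of 22410 and 25976 in WT and 14284 and 17252 in KO. Much of that fall came from Ucp1, the thermogenic uncoupling protein gene, at 4614 and 9828 in WT and 1038 and 1066 in KO. Of the 8 markers tested, Ucp1 alone was called (-2.66, limma adjusted p = 0.0228), with 5 lower and 0 higher at an unadjusted p under 0.05. The next brightest markers, Cidea and Cox8b, gave -0.04 and -0.14. Among the dimmer ones, Dio2 gave -1.04, Otop1 -1.02, Elovl3 -0.91, Cox7a1 -0.87 and Ppargc1a -0.22. Over the 8 brown adipocyte markers the median difference was -0.89, with 8 below 0 and 0 above. KO was lower without overlap of the groups for 5 of them. Macrophage markers summed to 39136 and 34724 in WT and 44607 and 44963 in KO, with 0 of 10 called by limma (1 lower and 6 higher at an unadjusted p under 0.05). Skeletal muscle markers summed to 3477 and 1675 in WT and 12737 and 7153 in KO, and limma called 5 of the 10 tested higher and 0 lower. No listed marker that was matched had a signal of 0, and the part of the brown fat, macrophage and muscle signals in the members' values was not tested.

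**Figure D3:**
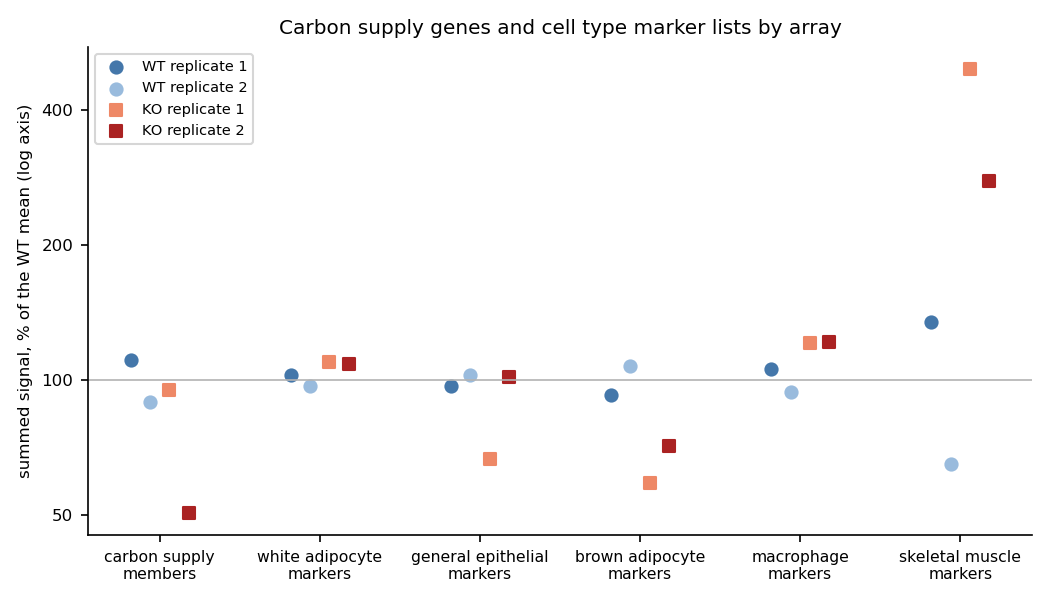
Points are the summed signal of a gene list on 1 array, as a percentage of the mean of the 2 WT arrays, on a log axis. The carbon supply members are low in KO replicate 2 alone (34971 against 61783 to 76606), the white adipocyte sums run from 172283 to 194719, the epithelial sum is low in KO replicate 1 (41401), and the muscle sums are high in both KO arrays.

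Probe sets of one gene mostly pointed the same way but differed in size. Of 27 members with more than 1 tested probe set, 23 had all of one sign, and 4 (Elovl7, Acsl4, Agpat3 and Lpin2) did not. The brightest probe set, which represents the gene here, had the smallest absolute difference in 17 of the 27 and the largest in 6. For Acly the 3 tested probe sets gave -0.52 on the brightest and -0.93 on the dimmest, for Acss2 -0.75 and -1.65, and for Mlx, with 2, -0.43 and -0.72. The values of the members given above are therefore often the smaller ones that the array offers. With the mean of all probe sets of a gene the median of the members was -0.27 and Fads2 was again the only call (-1.19, limma adjusted p = 0.0278).

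**Figure D4:**
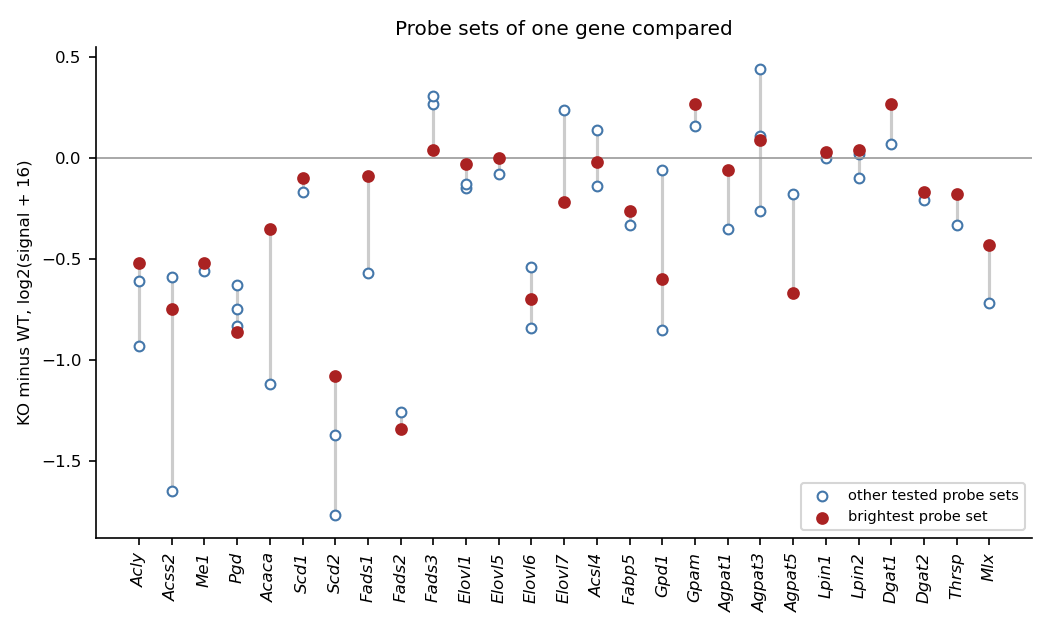
Each column is a member with more than 1 tested probe set, the filled point is its brightest probe set and open points are the others, on the scale of KO minus WT log2(signal + 16). The probe sets of Fads2 lie close together at -1.34 and -1.26, while those of Acaca (-0.35 and -1.12) and Scd2 (-1.08 to -1.77) spread.

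Other genes of the pathway gave no call. Of 40 genes listed, 37 were matched and 33 tested, limma called 0 lower and 0 higher, and 3 were lower and 3 higher at an unadjusted p under 0.05. The median difference was -0.07 over the 37. The list holds further isoenzymes of elongation and esterification, the later enzymes of the elongation cycle, and proteins that process SREBP. Mid1ip1, a partner of acetyl-CoA carboxylase related to Thrsp, gave 8293 and 4075 in WT and 3170 and 1597 in KO. It was lower on both KO arrays (-1.36, limma adjusted p = 0.132), though the WT arrays also lay far apart. Mogat2, a monoacylglycerol acyltransferase gene, gave 933 and 334 in WT and 562 and 84.7 in KO, with overlapping groups (-1.26, adjusted p = 0.445). Without KO replicate 1 the differences of Insig1, Mid1ip1, Mogat2 and Elovl3 ran from -1.04 to -2.52. Elovl3, which is also on the brown adipocyte list, was lower on both KO arrays, at 733 and 908 in WT and 471 and 388 in KO. With all 4 arrays it gave -0.91 (limma adjusted p = 0.0597). Insig1, which retains SREBP in the endoplasmic reticulum and is itself an SREBP target, stood at 4023 and 5257 in WT, 5501 in KO replicate 1 and 1908 in KO replicate 2.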

How the data were processed

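The deposited table holds intensities per probe set on a linear scale, computed with MAS5 per the submitters' processing notes; version and settings are not given in the sources used here. The authors' values share a trimmed mean of 500 on each array (lowest and highest 2% left out). Of 45101 probe sets, 64 controls were left out, and 34945 of the rest carried 1 symbol in the platform annotation, which can be old. Detection calls were not used here. Precision is limited by the number of arrays.

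Signals were taken as log2(signal + 16), which understates changes of dim genes. The 22519 probe sets (11360 genes) with a mean at or above the median, 7.15, were tested by limma 3.58.1 in R 4.3.3 (lmFit, eBayes with a variance trend), with Benjamini-Hochberg adjustment over all of them and a threshold of 0.05. The fit was tested on simulated data with noise drawn separately for each probe set. Such data hold no difference between animals that many genes share, so the test does not cover it. A permutation test of 2 against 2 arrays cannot reach this threshold.

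Members and lists were chosen with earlier results of these data known. By rule, each member past the threshold and the 3 members with the largest absolute difference in each step got the values of every array; of the other pathway genes, those past the threshold or else the 2 tested genes with the largest difference were named. Array values of further genes were chosen after they were seen. Alternatives were pseudocounts of 1 and 64, quantile normalization, centring on the array median or on epithelial markers, no filter or one at the 75th percentile, the mean of a gene's probe sets, no variance trend, and leaving out each array.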

Additional observations from a re-analysis of the deposited data

How the results depend on the processing

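The call of Fads2 was the only one among the members with pseudocounts of 1 and 64, quantile normalization, median centring, no filter, the 75th percentile filter, the mean of all probe sets and no variance trend, with adjusted p from 0.0137 to 0.0454. Centred on epithelial markers 0 members were called and their median was 0.13. With 1 array left out the number of members called lower ranged from 0 to 7, their median from -0.29 to -0.07, the number of other pathway genes called lower from 0 to 4, and the number of all genes called from 44 to 599. Over all genes 292 were called, against 27 with no filter, 127 with the 75th percentile filter and 137 with no variance trend. Of all calls 47.3% were higher in KO, against 61.7% with median centring and 75.3% with epithelial centring, which moved the median of all genes from -0.01 to 0.07 and 0.34.

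Epithelial and median centring each add a fixed amount to every gene's difference, so small negative differences turn positive by that shift alone. Signs turned for uncalled members. With epithelial centring these were Slc25a1 (0.08), Acss1 (0.12), Fasn (0.23), Scd1 (0.25), Fads1 (0.26), Elovl1 (0.31), Elovl5 (0.35), Elovl7 (0.13), Acsl3 (0.04), Acsl4 (0.33), Fabp5 (0.08), Agpat1 (0.29), Lpin3 (0.01), Dgat2 (0.17), Srebf1 (0.03), Thrsp (0.16) and Mlxipl (0.19). With median centring they were Elovl1 (0.05), Elovl5 (0.08), Acsl4 (0.06) and Agpat1 (0.03), with quantile normalization Acsl4 (0.01) and Lpin1 (-0.02), and with a gene's probe sets averaged Lpin2 (-0.06). With 1 array left out the range was -1.59 to 0.10 for Acss2, -0.73 to 0.03 for Acaca, -0.31 to 0.13 for Fads1, -0.52 to 0.60 for Fads3, -0.09 to 0.02 for Elovl1, -0.11 to 0.11 for Elovl5, -1.60 to 0.20 for Elovl6, -0.25 to 0.21 for Acsl4, -0.0049 to 0.08 for Acsl5, -0.67 to 0.14 for Fabp5, -0.14 to 0.03 for Agpat1, -0.24 to 0.30 for Lpin1, -0.10 to 0.19 for Lpin2, -0.70 to 0.07 for Srebf1, -0.50 to 0.19 for Mlxipl and -2.52 to 0.0035 for Mogat2. The cause was not tested. No paired analysis was possible because the replicate numbers follow the order of deposit and pair no animals.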
